A study of Mus musculus with 6 samples.

Results

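Sugar burning and the response to low oxygen were followed here through 32 genes, out of 32285 in the feature table. The cells were of 7 classes and came from the mouse colon, uninjured or injured. The genes were taken by symbol from a list of glycolytic enzymes, glucose and lactate transporters and hypoxia-induced genes, and all 32 were found. The 7 classes were neutrophils, monocytes, macrophages, dendritic cells, T cells, plasma cells and epithelial cells.

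Glycolysis splits glucose to pyruvate in the cytosol, and cells that lack oxygen or are strongly activated turn much of that pyruvate into lactate and export it. The transcription factor HIF-1, whose oxygen-labile subunit is encoded by Hif1a, raises many of these genes when oxygen falls, and the prolyl hydroxylases encoded by Egln1 and Egln3 mark that subunit for destruction when oxygen is present. Neutrophils depend on glycolysis for most of their energy, and inflammatory macrophages raise it on activation. Epithelial cells at the lumen of the colon live at low oxygen even in health.

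The samples were 6 single-cell libraries, 1 for each of 6 groups of wild type mice, and each held CD45-positive cells sorted from colon after an EDTA strip of the epithelium and a Liberase TL and DNase I digest. Specific pathogen free (SPF) mice were untreated controls (day 0) or took dextran sulfate sodium (DSS), a detergent-like polymer that injures the colon lining, for 2 or 7 days. Pseudo germ-free (pGF) mice had 4 weeks of antibiotics (day 0), or that course followed by antibiotics with DSS for 2 or 7 days, so both later pGF groups carried antibiotics as well as DSS. The libraries used a droplet kit that counts the 5′ ends of transcripts as unique molecular identifiers (UMIs). How many mice stand behind each library is not given in the sources used here. Each group therefore has 1 library and no replicate, no test between groups was possible, and every interval below is a 95% interval for counting error only.

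The libraries held 1792 to 11629 barcodes and 23335071 to 52772901 UMIs, and 29130 of 40523 barcodes were kept as cells. The SPF day 2 library stands apart: 61.1% of its barcodes were over the limit of 10% mitochondrial UMIs, against 6.41% to 28.1% in the other 5. Of 28725 distinct barcode sequences among kept cells, 402 (1.4%) stood in more than 1 library. Kept cells were clustered without the 32 members, and clusters were named from marker genes, so each class is a "neutrophil-like", "macrophage-like" or other such group, written below without the ending. Every marker of a class was detected in that class in every library described, except that Ly6g had no UMI in SPF day 2 neutrophils, Siglech none in SPF day 0 dendritic cells and Fscn1 none in SPF day 2 dendritic cells. None of the dendritic markers was among the leading genes of the main dendritic cluster, which were led by MHC class II genes and also held Retnla, Il1b and Lyz2. Macrophage was the next class by marker score in that cluster, at 1.65 against 2.49 for dendritic cells. Epithelial cells should not pass a CD45 sort, and 31 to 1125 of them did so in each library.

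Levels are counts per 1000000 UMIs (CPM), summed over the cells of a class in a library. Differences are log2 ratios of CPM + 10, which understate the change of low genes. A member counted as measured in a comparison when it had at least 10 CPM in 1 of its libraries, and as apart when it differed at least 2-fold. Comparisons were made where both libraries had at least 100 cells of the class. Neutrophils numbered 1, 47 and 3702 in SPF at days 0, 2 and 7 and 7, 44 and 67 in pGF, and monocytes 27, 87 and 1250 in SPF and 9, 11 and 58 in pGF, so both classes are compared only within the SPF day 7 library.

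The regulatory sequence in front of several members carries the letters that HIF-1 is known to bind, and 6 of them are shown as examples. All 6 hold matches, and other members that recur in the results below, such as Pkm and Eno1, are not shown. In RefSeq promoters (build GRCm38.p6, 250 bases before to 50 after a gene start) 29 of the 32 members matched, with 41 start sites, and Slc2a3, Ndrg1 and Bnip3l did not. The letters ACGTG, on either strand, stood in 56.1% of the member windows against 19.6% of all 32851 windows. GCGTG stood in 61.0% against 32.4%, and either motif in 85.4% against 43.8%. The member windows were also richer in G and C, with a median of 61.3% against 52.7%. CACGTG holds ACGTG on both strands and was counted once for each. The 250 bases before the start are printed 5′ to 3′ on the gene's strand, with matches to ACGTG or GCGTG on either strand in capitals. A match describes the letters and is not a measured binding site.
Gapdh, chr6:125165774-125166023, minus strand: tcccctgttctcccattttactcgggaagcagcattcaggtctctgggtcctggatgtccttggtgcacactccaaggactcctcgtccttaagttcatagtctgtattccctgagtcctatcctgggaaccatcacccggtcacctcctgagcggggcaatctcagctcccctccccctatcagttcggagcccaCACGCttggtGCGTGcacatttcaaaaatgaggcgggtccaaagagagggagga
Pgk1, chrX:106186850-106187099, plus strand: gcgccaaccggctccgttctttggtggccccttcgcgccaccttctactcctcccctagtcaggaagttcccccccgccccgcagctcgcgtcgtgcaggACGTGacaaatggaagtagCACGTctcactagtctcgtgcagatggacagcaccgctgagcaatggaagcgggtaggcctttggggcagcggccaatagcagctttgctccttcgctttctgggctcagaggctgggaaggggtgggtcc
Pgam1, chr19:41911621-41911870, plus strand: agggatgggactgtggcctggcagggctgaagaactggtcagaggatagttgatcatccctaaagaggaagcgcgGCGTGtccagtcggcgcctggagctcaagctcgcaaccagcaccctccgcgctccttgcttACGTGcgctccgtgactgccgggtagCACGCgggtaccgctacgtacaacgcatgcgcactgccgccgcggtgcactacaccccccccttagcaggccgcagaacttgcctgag
Bnip3, chr7:138909507-138909756, minus strand: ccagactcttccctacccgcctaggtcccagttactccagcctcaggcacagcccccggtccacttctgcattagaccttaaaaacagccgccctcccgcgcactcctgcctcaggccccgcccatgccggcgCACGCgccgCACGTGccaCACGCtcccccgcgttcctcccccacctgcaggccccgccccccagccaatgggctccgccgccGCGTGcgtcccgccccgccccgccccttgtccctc
Hif1a, chr12:73907617-73907866, plus strand: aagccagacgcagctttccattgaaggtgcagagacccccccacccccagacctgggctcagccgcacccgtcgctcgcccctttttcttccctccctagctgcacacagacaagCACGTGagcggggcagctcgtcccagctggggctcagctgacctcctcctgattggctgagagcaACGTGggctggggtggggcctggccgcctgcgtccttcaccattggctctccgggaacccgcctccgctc
Slc16a3, chr11:120948817-120949066, plus strand: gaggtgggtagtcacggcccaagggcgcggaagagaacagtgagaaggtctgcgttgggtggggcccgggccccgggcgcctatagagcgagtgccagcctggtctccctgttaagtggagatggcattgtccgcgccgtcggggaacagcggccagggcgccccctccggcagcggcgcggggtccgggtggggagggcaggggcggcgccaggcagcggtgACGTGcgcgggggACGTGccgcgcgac

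Of the 29 genes with a window, 27 held either motif in at least 1 of them. The windows of Tpi1 and Gpi1, both single, held neither. Those of Bnip3 held 5 matches before the start, and those of Pgk1 and Slc16a3 held 2 each.

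Summed over all 32 members, the level was lowest in plasma cells in every library. Neutrophils held 5394 to 6913 CPM in the 4 libraries with at least 20 of them. Monocytes held 4015 to 4065 in 3 libraries and 7598 (7540 to 7657) in SPF day 7. Epithelial cells held 6416 and 6184 at day 0 and 4074 to 4236 later, and plasma cells held 776.4 to 1589. The sum adds up UMIs, so single members are given below by role.

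**Figure D1:**
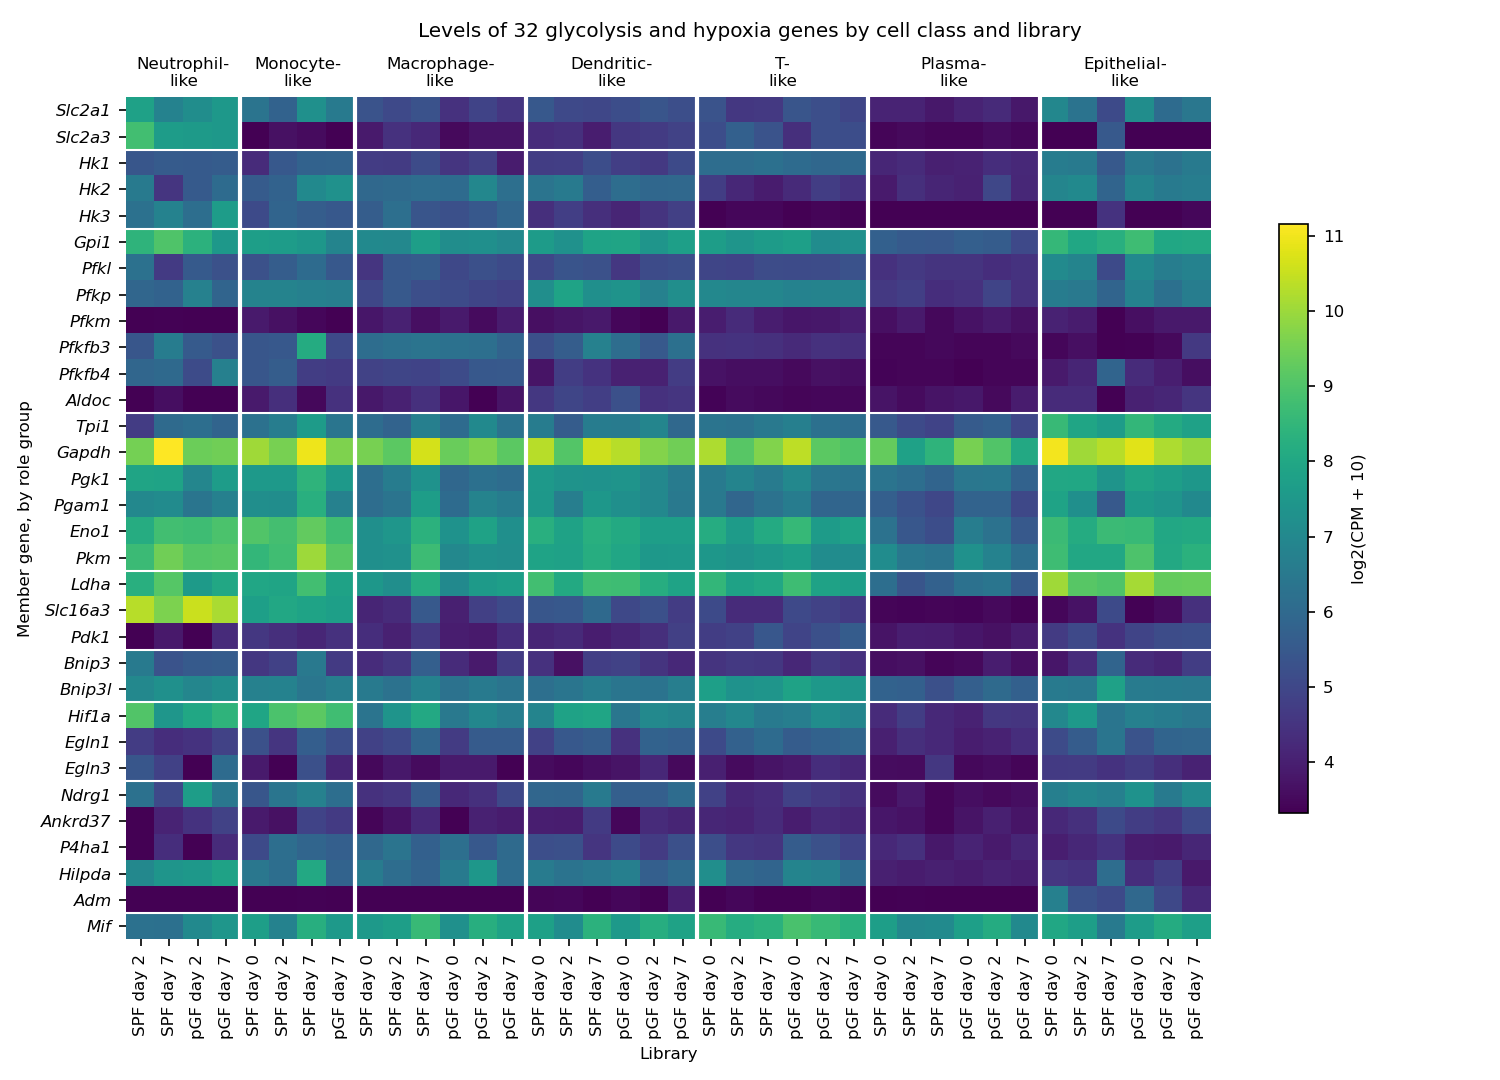
Levels of the 32 members as log2(CPM + 10), in rows grouped by role, in each class and library with at least 20 cells (columns). The bright Slc16a3 row under neutrophils and the dark plasma cell columns stand out, and Gapdh is at its highest in SPF day 7 neutrophils at 2288 CPM.

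The pair of glucose transporters parted the classes. Slc2a1, the general glucose transporter, stood at 102.3 to 214.8 CPM in neutrophils, 45.35 to 143.9 in monocytes and 57.03 to 133.0 in epithelial cells, leaving out 24.03 in SPF day 7, where only 31 epithelial cells were kept. In macrophages it was 11.71 to 30.53 and in plasma cells 4.068 to 9.084. Slc2a3, a high-affinity glucose transporter, was at 429.6, 190.0, 183.9 and 172.8 CPM in neutrophils of SPF day 2, SPF day 7, pGF day 2 and pGF day 7. Its monocyte level was at most 2.668 and its T cell level 10.79 to 42.51. In epithelial cells it had no UMI in 3 libraries, at most 0.2045 CPM in 2 others, and 36.04 CPM in the 31 cells of SPF day 7. Those 31 cells also held 36060 CPM of neutrophil markers, against 21.03 to 147.9 in the epithelial cells of the other libraries.

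The 3 hexokinases, which trap glucose in the cell by phosphorylation, split by class. Hk1, the constitutive form, was at 51.96 to 63.71 CPM in T cells of all 6 libraries and at 5.157 to 24.3 in macrophages. Hk2, the inducible form, ran from 52.46 to 114.1 in macrophages and from 5.219 to 16.95 in T cells. Hk3, a form known from myeloid cells, was at 61.3 to 192.0 in neutrophils and 28.11 to 63.26 in macrophages, while T and plasma cells had at most 1.119 CPM.

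Among the enzymes and regulators of upper glycolysis, Pfkp, the platelet form of phosphofructokinase, had a narrow range in T cells, 101.7 to 116.2 CPM across the 6 libraries. In dendritic cells it ran from 98.47 to 224.5, and in macrophages from 18.91 to 35.85. Pfkfb3, which makes the activator of phosphofructokinase, was at 273.9 CPM in SPF day 7 monocytes and at 22.99 to 34.68 in the other 3 monocyte libraries. Gpi1, which turns glucose-6-phosphate into fructose-6-phosphate, was at 172.8 to 499.3 in neutrophils and 23.55 to 42.88 in plasma cells. Pfkl, the liver form, was at 91.06 to 125.6 in epithelial cells apart from 24.03 in the 31 of SPF day 7. Pfkfb4, a relative of Pfkfb3, was at 24.52 to 95.99 in neutrophils. Pfkm, the muscle form, and Aldoc, the brain aldolase, stayed low, at no more than 9.509 and 28.01 CPM in any of the 7 classes.

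Lower glycolysis is used by all cells. Tpi1, which interconverts the triose phosphates, was at 192.2 to 379.6 CPM in epithelial cells, 66.27 to 188.1 in monocytes and 16.52 to 61.3 in neutrophils. Eno1 was at 425.2 to 610.3 in monocytes and 280.9 to 479.9 in neutrophils, and Pkm at 359.8 to 1025 and 396.5 to 696.8. Pgk1 and Pgam1 were highest among monocytes in SPF day 7, at 336.3 and 296.6 CPM, against at most 180.1 and 137.3 in the other 3 monocyte libraries.

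Lactate handling showed wide gaps between classes. Ldha, which turns pyruvate into lactate, was at 504.6 to 1095 CPM in epithelial cells and at most 537.0 in the other classes of the 7. Slc16a3, the lactate exporter MCT4, was at 1272, 768.2, 1483 and 1133 CPM in the neutrophils of SPF day 2, SPF day 7, pGF day 2 and pGF day 7. Monocytes had 203.6 to 248.1, macrophages 6.247 to 35.58 and plasma cells at most 1.397. In epithelial cells, where Ldha was high, Slc16a3 was 0.31 to 3.082 CPM at days 0 and 2. At day 7 it was 11.12 in the 75 cells of pGF and 24.03 in the 31 cells of SPF. Those 31 cells held 83239 UMIs in total and also carried neutrophil markers, so their Slc16a3 value is not a clear epithelial level. Pdk1, which holds pyruvate back from the citric acid cycle, was at 16.95 to 38.18 in T cells and at 12.01 to 26.7 in epithelial cells.

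Of the oxygen-sensing genes, Hif1a was at 162.8 to 512.2 CPM in neutrophils and 232.0 to 568.0 in monocytes, and at 6.981 to 16.66 in plasma cells. Egln3 reached 57.59 CPM in pGF day 7 neutrophils, where that value rests on 67 cells. Among the 7 classes, those other than neutrophils and monocytes had at most 15.77. Egln1 was at 23.61 to 56.78 in T cells and 10.18 to 19.2 in neutrophils. Ndrg1, a gene induced by hypoxia and stress, was at 33.14 to 99.53 in monocytes and 83.58 to 149.1 in epithelial cells. Bnip3l, which marks mitochondria for removal, was at 148.2 to 218.0 in T cells. It was at 27.8 to 141.8 in every other class of the 7 except the 31 SPF day 7 epithelial cells, where it was 216.2. Bnip3, its paralog, was at 80.9 CPM in SPF day 7 monocytes and at 14.2 to 18.67 in the other 3 monocyte libraries.

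Among the 7 classes, Adm, the vessel-widening peptide adrenomedullin, was highest in epithelial cells. Its epithelial level was 96.41, 29.13 and 24.03 CPM in SPF at days 0, 2 and 7 and 52.39, 22.17 and 8.899 in pGF, and no other class of the 7 exceeded 5.919. The SPF day 7 value rests on 31 cells with 83239 UMIs in total. Stromal cells, which are outside the 7, had 39.75 CPM in SPF day 2 and 56.86 in pGF day 0. Macrophages had no Adm UMI in any of the 6 libraries, which allows at most 1.29 CPM in the deepest and 5.16 in the shallowest. Mif, a cytokine that lymphocytes store and release, was at 280.2 to 470.0 in T cells and at 65.01 to 163.2 in neutrophils. Ankrd37 did not exceed 24.03 CPM in any of the 7 classes. P4ha1, a collagen prolyl hydroxylase, ran from 34.24 to 70.64 in macrophages and reached at most 10.56 in neutrophils.

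Within the SPF day 7 library, monocytes stood above macrophages in the members. Of 29 members measured, 10 were at least 2-fold higher in monocytes and 0 lower, against 6.31% and 12.3% of all genes tested. The median log2 ratio was 0.68 over the members and -0.35 over all genes. Slc16a3 was at 222.6 CPM in monocytes and 35.58 in macrophages, a ratio of 6.26 (4.59 to 8.75), and Hilpda, which coats lipid droplets under hypoxia, was at 257.9 and 46.86, a ratio of 5.50 (4.20 to 7.35). Among members that reached 50 CPM, Slc2a1, Pfkfb3 and Pfkp followed, with log2 ratios of 1.96, 1.82 and 1.54. In cells with no neutrophil marker, a selection chosen after seeing the data, that of Pfkfb3 was 0.46. For this selection, here and below, S100a8 and S100a9 did not count as markers, so cells carrying them could stay. Pkm, the enzyme that makes pyruvate, was at 1025 against 404.4 CPM and Hif1a at 568.0 against 257.7. The transporter, the lactate exporter and the regulator of flux were thus among those furthest apart, while Gapdh, at 2000 and 1605 CPM, was not 2-fold apart. Totals rescaled by the trimmed mean of M-values (TMM) gave 20 members higher and 0 lower. Shares of all genes, here and below, are for totals without this scaling. This scaling leaves out the genes with the most extreme ratios and, to a lesser extent, those with the highest and lowest levels.

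Neutrophils of the same library differed from monocytes in both directions. Of 28 members measured, 5 were at least 2-fold higher in neutrophils and 11 lower, against 8.41% and 24.4% of all genes. With TMM totals the counts were 6 and 7, while those shares are for unscaled totals. Higher in neutrophils were Slc2a3 (190.0 against 1.62 CPM, log2 4.11), Slc16a3 (768.2 against 222.6, log2 1.74), Gpi1 (log2 1.52), Pfkfb4 (log2 1.23) and Hk3 (log2 1.18). Lower were Hk2 at 13.06 against 121.4 CPM (log2 -2.51), Mif at 65.01 against 291.9 (log2 -2.01), Hif1a at 162.8 against 568.0 (log2 -1.74), Ndrg1 (log2 -1.72), Tpi1 (log2 -1.59) and Pfkfb3 (log2 -1.53). Slc2a3 and Hk3 were thus on the neutrophil side and Hk2, Hif1a and Pfkfb3 on the monocyte side, while Slc2a1, at 102.3 and 143.9 CPM, was not 2-fold apart. With TMM totals Pfkfb3 was under 2-fold, at -0.98. The 10 neutrophil markers took 290800 CPM of the neutrophils' UMIs and 5315 CPM of the monocytes'.

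Against T cells of the library, 13 of 28 measured members were at least 2-fold higher in neutrophils and 4 lower, against 9.84% and 52.2% of all genes. With TMM totals the split was 20 and 0, while those shares are for unscaled totals. Slc16a3 was at 768.2 against 9.359 CPM, a ratio of 82.1 (67.7 to 100.6), and Hk3 at 102.5 against 1.08. Gapdh was at 2288 against 810.5 CPM and Pkm at 696.8 against 170.2. Mif at 65.01 against 314.6 CPM, Egln1 at 10.18 against 56.78 and Pfkp at 45.04 against 110.9 were lower in neutrophils. The lower Pfkp level turned to a log2 ratio of 0.23 with TMM totals, and Mif and Egln1 were under 2-fold there, at -0.70 and -0.75.

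**Figure D2:**
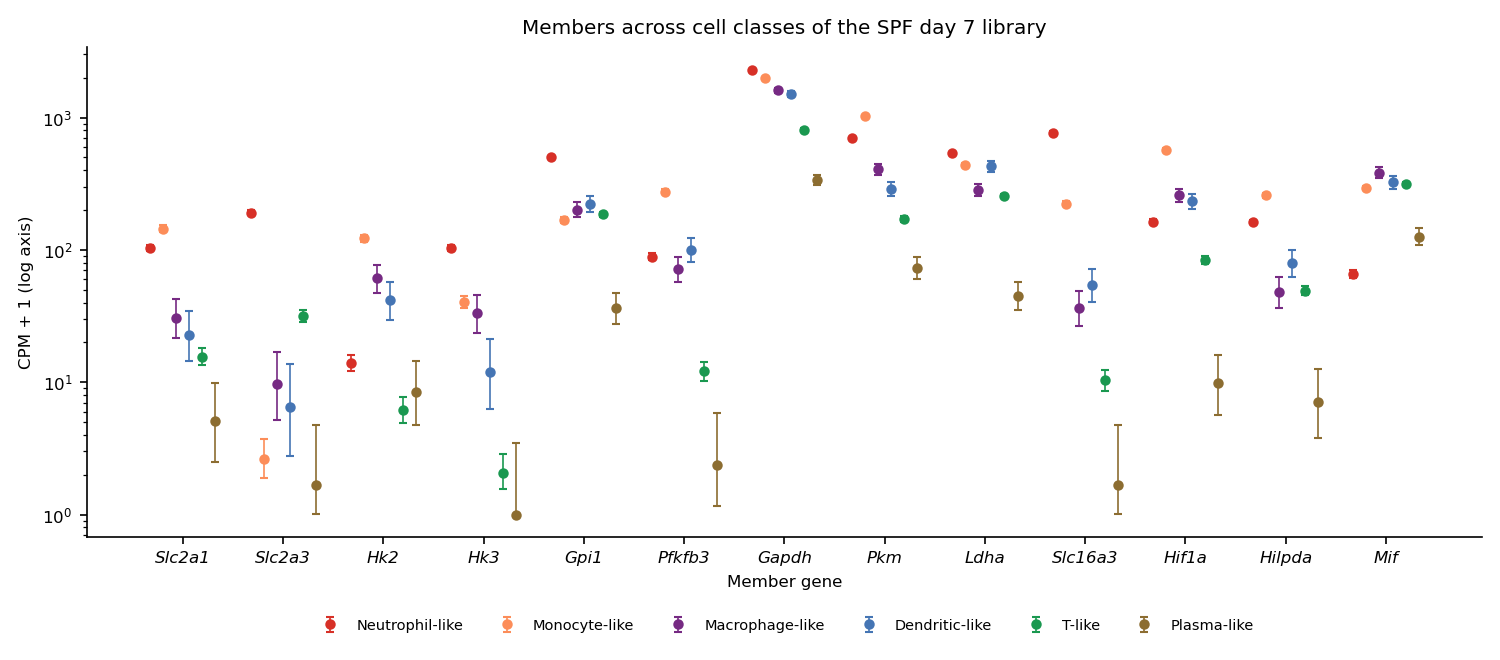
CPM + 1 (log axis) of 13 members in 6 classes of the SPF day 7 library; points are the class sums and bars the 95% counting intervals. Neutrophils lead in Slc16a3 at 768.2 CPM and Slc2a3 at 190.0, monocytes in Hif1a at 568.0 and Pfkfb3 at 273.9, and plasma cells lie lowest for every gene shown except Hk2, lowest in T cells, and Mif, lowest in neutrophils.

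The neutrophils of that library formed 2 main clusters that differed in depth. One of 1847 cells had a median of 5826 UMIs and the other of 1814 cells a median of 751.5. The summed members stood at 7221 and 4890 CPM. Slc16a3 was at 839.5 in the deeper and 293.7 in the shallower cluster, and Gapdh at 2403 and 1534. Slc2a1, Slc2a3, Gpi1, Eno1, Pkm and Ldha were also higher in the deeper cluster. Hif1a, at 152.9 and 233.9, and Mif, at 51.46 and 157.9, went the other way. So did Hk2, Pfkp, Pfkfb3, Tpi1, Egln1, Ndrg1 and P4ha1, among others. Both clusters were led by S100a8, S100a9 and Retnlg, and the median mitochondrial share was 0.25% in the deeper and 2.21% in the shallower one.

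In macrophages, glycolytic genes stood higher in SPF mice at day 7 of DSS than in pGF mice at that day. Of 27 members measured, 0 were at least 2-fold higher in pGF and 8 were lower, against 3.67% and 2.88% of 8267 genes tested. The median log2 ratio of pGF to SPF was -0.51 over the members and -0.01 over all genes, and 22 of the 27 lay below 0. Among the 8 were 5 of the 6 members of lower glycolysis, the energy-yielding stretch of the pathway, and Hif1a.

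Gapdh, the enzyme that yields NADH, was at 737.9, 572.5 and 1605 CPM in SPF macrophages at days 0, 2 and 7 and at 649.6, 792.3 and 577.6 in pGF. The SPF day 7 library alone was high, and the pGF to SPF ratio at day 7 was 0.36 (0.319 to 0.404). Pkm was at 138.5, 146.6 and 404.4 CPM in SPF and at 117.1, 141.8 and 135.8 in pGF, with a day 7 ratio of 0.336 (0.261 to 0.427). Eno1, which makes phosphoenolpyruvate, was at 140.2, 164.5 and 321.1 in SPF and 149.9, 218.5 and 139.2 in pGF, a ratio of 0.434 (0.337 to 0.553). The other 5 libraries overlapped between the arms for each of the 3 genes.

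Pgk1, the first ATP-making enzyme of the pathway, was at 61.49, 88.56 and 148.4 CPM in SPF and 51.53, 65.21 and 58.44 in pGF, a ratio of 0.394 (0.264 to 0.572) at day 7. Pgam1, the mutase that follows it, was at 59.77, 71.69 and 197.8 in SPF and 57.0, 102.7 and 87.67 in pGF, a ratio of 0.443 (0.320 to 0.603). In SPF, Hif1a was higher at each later day: it was at 70.96, 157.1 and 257.7 CPM in SPF and 79.64, 114.1 and 92.82 in pGF, a day 7 ratio of 0.36 (0.264 to 0.483). The low members Hk1, at 24.3 and 5.157 CPM in SPF and pGF at day 7, and Bnip3, at 41.65 and 15.47, were the other 2 of the 8. Ldha, at 282.0 and 199.4 CPM, and Hk2, at 59.88 and 63.6, were not 2-fold apart.

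**Figure D3:**
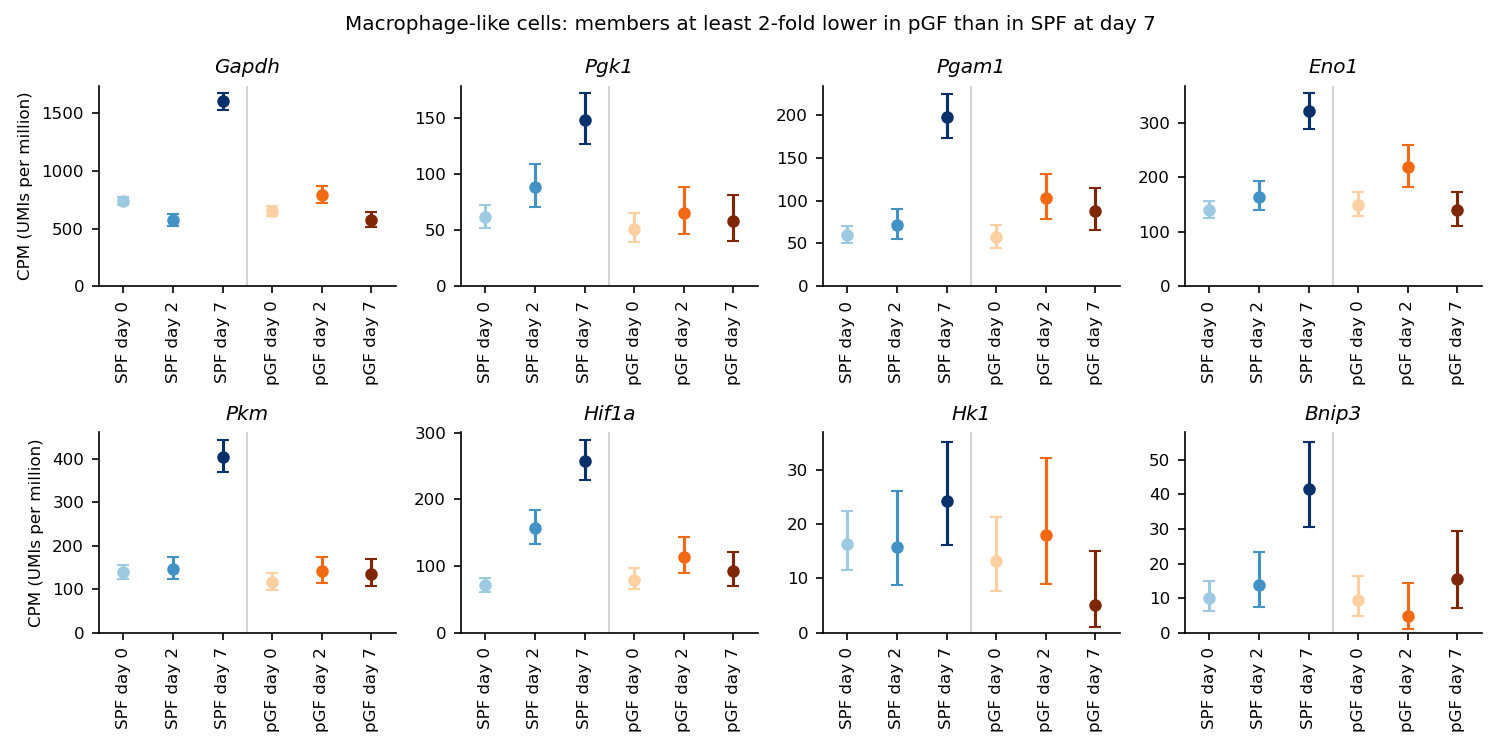
CPM in macrophages of each library for the 8 members at least 2-fold lower in pGF than in SPF at day 7; points are class sums and bars the 95% counting intervals, each panel with its own axis from 0. SPF day 7 is the highest point in all 8 panels, and Hk1 and Bnip3 have the widest bars for their level.

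At day 0 none of 24 measured members was 2-fold apart between the arms in macrophages, against 1.54% of all genes. At day 2 only Tpi1, at 46.39 CPM in SPF and 122.3 in pGF, and Hilpda, at 60.1 and 167.9, were apart, 2 of 26 against 5.9%. Both were higher in pGF. The comparisons at the 3 days use separate libraries, and the difference between days was not tested.

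Along the injury, SPF macrophages at day 7 stood above those at day 0. These values share the SPF day 7 library with the comparison between the arms. Of 27 measured members, 12 were at least 2-fold higher and 0 lower, against 4.15% and 4.81% of all genes, with a median log2 ratio of 0.69 against 0.19. Hif1a had a ratio of 3.63 (2.99 to 4.42), Pgam1 of 3.31 (2.67 to 4.12) and Pkm of 2.92 (2.53 to 3.38). Pgk1, Eno1, Gapdh and Mif had log2 ratios of 1.15, 1.14, 1.11 and 1.03. With TMM totals, a shift of -0.25 on the log2 scale, the count was 5 and Gapdh, Pgk1 and Eno1 were under 2-fold. From day 2 to day 7 in SPF, 5 of 28 were higher and 0 lower, against 3.75% and 6.48%, and they were Gapdh, Pkm, Pgam1, Slc16a3 and Bnip3. From day 0 to day 2 only Hif1a was apart, higher by 1.05 on the log2 scale, 1 of 26 against 3.41%, and it was under 2-fold with TMM totals (log2 0.76).

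In pGF macrophages few members were apart between the days. Between days 0 and 2, 0 of 24 were apart, against 5.85% of all genes. Hilpda, at 81.99 CPM at day 0, 167.9 at day 2 and 58.44 at day 7, was the 1 member of 26 apart from day 2 to day 7, against 4.3%. Slc16a3, at 6.247 and 24.07 CPM, was the 1 of 26 apart from day 0 to day 7, against 3.91%, and was under 2-fold with TMM totals.

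The macrophage class was not the same mix of cells in the libraries. At a cluster resolution of 2 in place of 1 it parted into a deeper and a shallower cluster. The deeper part held 239, 138 and 75 cells in SPF at days 0, 2 and 7 and 143, 88 and 95 in pGF, and its median UMI count was 6897 in SPF and 4305 in pGF at day 7. The shallower part held 79.9% of SPF and 35.8% of pGF macrophages at day 7, with median UMI counts of 1063 and 928. At that resolution it could not be named, because both macrophage and plasma markers scored in it. In its 53 pGF day 7 cells plasma markers summed to 54490 CPM, against 1659 in its 318 SPF day 7 cells, and neutrophil markers to 28.24 against 2950. Plasma markers in the shallower part summed to 131700 CPM in SPF day 0, 99250 in SPF day 2 and 321.1 in pGF day 2.

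In the deeper part fewer members were 2-fold apart at day 7, while the median was further from 0. Of 27 measured members, 1 was at least 2-fold higher in pGF and 2 were lower, against 4.96% and 3.98% of all genes in those cells. The 2 lower were Gapdh, at 1308 CPM in SPF and 553.1 in pGF, and Eno1, at 297.4 and 132.5, and the higher one was Hk3, at 18.59 and 56.78. Pkm, at 247.2 and 132.5, and Hif1a, at 156.1 and 96.74, had log2 ratios of -0.85 and -0.64 there. The median was -0.64, and 19 of the 27 lay below 0. In the shallower part 0 of 26 were higher and 9 lower, against 10.4% and 17.2%, with Hif1a at 346.5 and 75.31 CPM and Pkm at 539.8 and 150.6. The deeper part rests on 75 SPF and 95 pGF cells and the shallower on 53 pGF cells. The direction of Gapdh, Eno1, Pkm and Hif1a was thus the same in both parts, and the 8 lower members of the whole class became 2 lower and 1 higher in the deeper part. From day 0 to day 7 in SPF, the deeper part had 3 members higher and 3 lower where the whole class had 12 and 0, against 3.85% and 5.88% of all genes in those cells. From day 2 to day 7 it had 1 of 27 higher, Gapdh (log2 1.19), and 2 lower, Hk3 (log2 -1.52) and Pfkfb3 (log2 -1.16), against 4.45% and 8.15%. Hif1a was at 165.3 CPM there at day 2 and 156.1 at day 7.

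**Figure D4:**
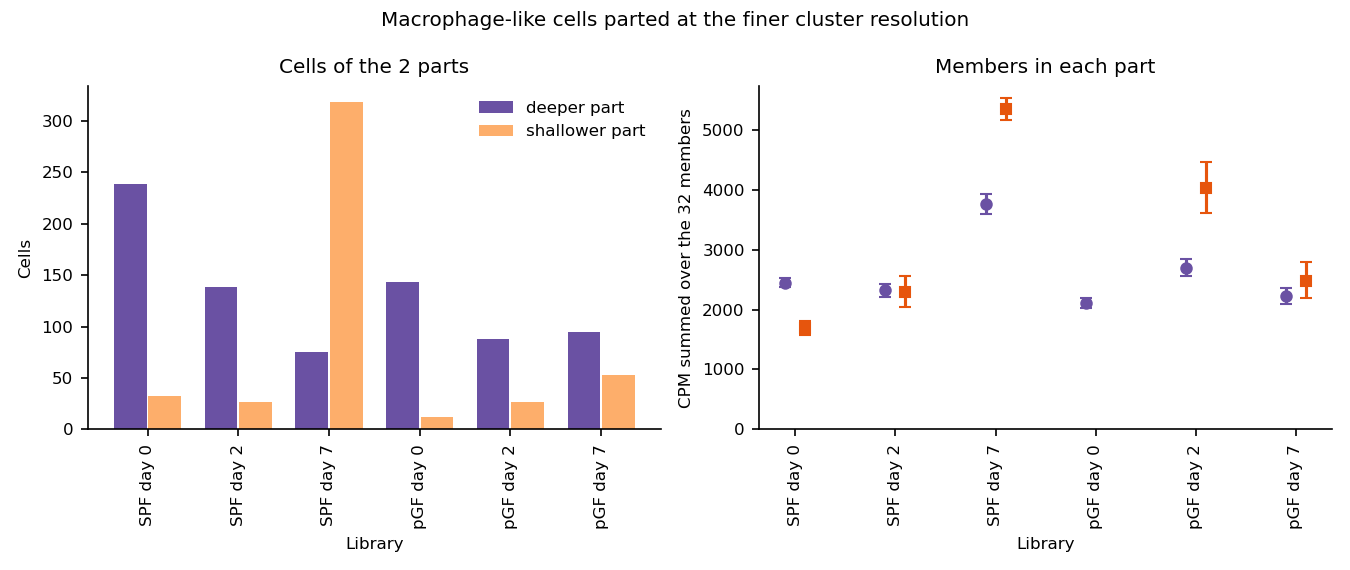
Left, cells of the deeper and the shallower macrophage part in each library; right, CPM summed over the 32 members in each part with 95% counting intervals, on an axis from 0, for parts with at least 20 cells. SPF day 7 has 318 shallower and 75 deeper cells, and it is the highest library in both parts, at 5346 and 3756 CPM. Plasma markers in the shallower part differed widely between the libraries shown, from 321.1 CPM in pGF day 2 to 131700 in SPF day 0.

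Other genes moved beside the macrophage result. The 14 genes known to respond to warm tissue digestion, such as Fos and Jun, summed to 4933 CPM in SPF day 7 macrophages and to 10310 in pGF day 7, and 8 of the 14 were at least 2-fold higher in pGF at day 7. In the other 4 libraries they summed to 12410 to 14780. All 10 neutrophil markers were detected in SPF day 7 macrophages and summed to 2090 CPM, against 249.4 to 521.6 in the other 5 libraries and 290800 in the neutrophils of that library. In T cells, which should lack them, they summed to 851.2 CPM in SPF day 7 and to at most 15.42 elsewhere. Monocyte markers summed to 694.2 CPM in SPF day 7 macrophages and to 319.9 to 616.9 in the others. Macrophages with none of the neutrophil markers other than S100a8 and S100a9 numbered 178 in SPF and 111 in pGF at day 7. They had 1 member higher and 7 lower, and Eno1 was then under 2-fold (log2 -0.98). The shares of all genes in these cells are not given here. This selection of cells was chosen after seeing the data, and cells carrying S100a8 or S100a9 could stay in it. The part of the digestion genes in the result was not tested.

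Dendritic cells had fewer members apart between the arms at day 7. In them, 0 of 29 measured members were at least 2-fold higher in pGF and 3 lower, against 3.08% and 4.47% of all genes, and the median log2 ratio was -0.46. Gapdh was at 1280, 525.4 and 1514 CPM in SPF dendritic cells at days 0, 2 and 7 and at 1258, 829.1 and 695.4 in pGF, a day 7 ratio of 0.459 (0.413 to 0.511). Hif1a was at 106.8, 219.8 and 231.9 in SPF and 75.4, 118.6 and 109.5 in pGF, a ratio of 0.472 (0.357 to 0.618). In SPF dendritic cells Gapdh was high at day 0 as well as at day 7 and lowest at day 2. Slc16a3 was the third, at 53.59 and 16.28 CPM, a ratio of 0.304 (0.142 to 0.592).

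Neutrophil markers summed to 1545 CPM in these SPF day 7 dendritic cells and to 137.6 in pGF, and digestion genes to 3851 and 6576. Dendritic cells with none of those markers other than S100a8 and S100a9 numbered 99 in SPF and 128 in pGF. In them Gapdh, Hif1a and Slc16a3 were all under 2-fold, with log2 ratios of -0.77, -0.56 and -0.91. The count was 2 higher and 1 lower, and the shares of all genes in these cells are not given here. The part of the digestion genes was not tested. At day 2, 3 of 28 members were apart, against 8.29% of all genes: Tpi1 (39.12 CPM in SPF and 108.0 in pGF) and Mif (131.3 and 285.9) were higher in pGF and Pfkp (224.5 and 98.47) lower. Day 0 was not compared, because the pGF library held 74 dendritic cells.

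Over the days in SPF dendritic cells, 3 of 27 members were apart from day 0 to day 2, against 7.27% of all genes. Gapdh and Tpi1 were lower by 1.27 and 1.01 on the log2 scale and Pfkfb4, from 3.363 to 16.77 CPM, was just past 2-fold higher. With TMM totals the split of 1 higher and 2 lower became 0 and 3. From day 2 to day 7, 5 of 28 were higher and 0 lower, against 5.92% and 7.6%, among them Gapdh with a log2 ratio of 1.51, Mif with 1.24 and Pfkfb3 with 1.13. Pfkfb3 was under 2-fold at a mitochondrial limit of 20%, at a pseudocount of 50 CPM, as a mean over cells and with UMIs thinned to 1000 per cell, where it was lowest at 0.34. Mif was under 2-fold with thinned UMIs (0.63) and in cells with no neutrophil marker (0.95). A cluster led by Ly6d and Siglech held 9.66% of SPF day 7 dendritic cells and none of SPF day 2, and its part in the result was not tested. From day 0 to day 7, Pfkfb3 (27.74 to 99.53 CPM) and Hif1a were higher, 2 of 28 against 11.8% of all genes, Hif1a by less than 2-fold with TMM totals (log2 0.96). In pGF from day 2 to day 7, 0 of 28 were apart, against 3.69%. These 3 SPF comparisons share libraries with each other.

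**Figure D5:**
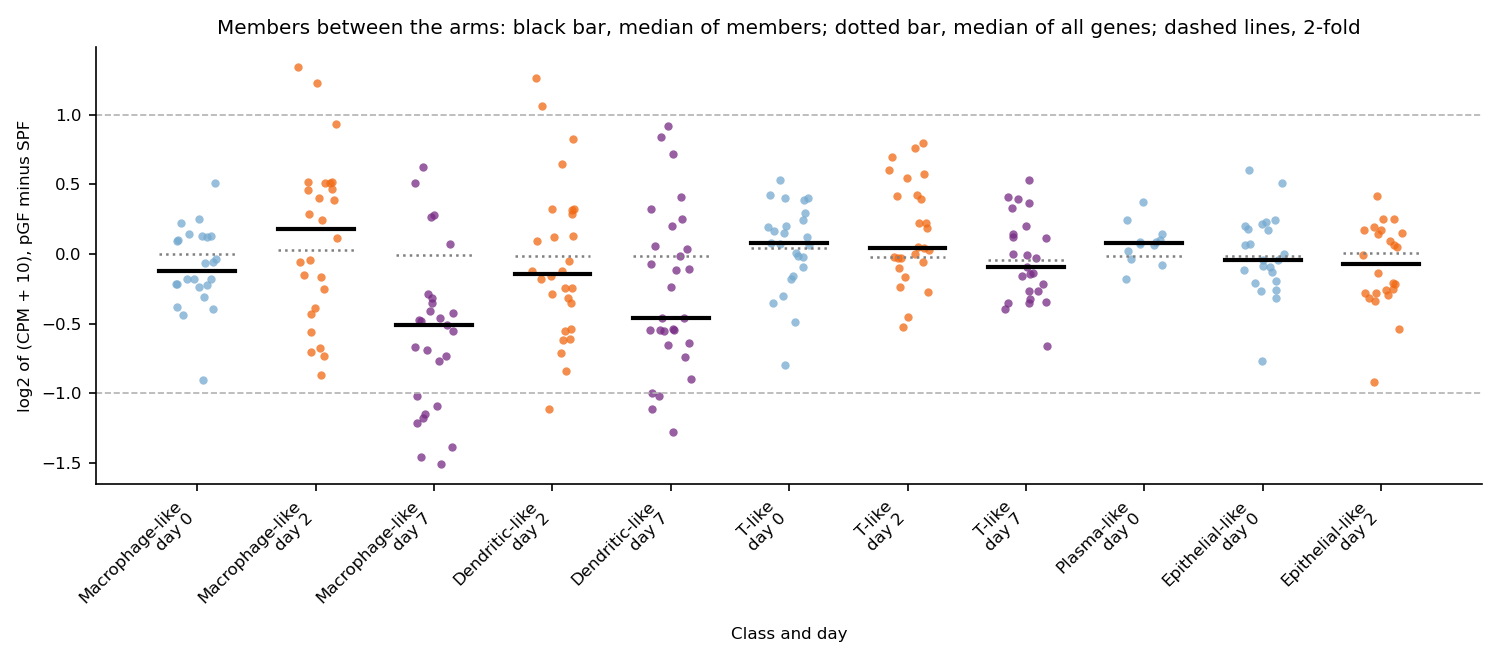
Log2 ratio of CPM + 10, pGF minus SPF, for each measured member (points) by class and day, with the median of the members (black bar), the median of all genes (dotted bar) and the 2-fold lines (dashed). At day 7 the medians of macrophages and dendritic cells lie at -0.51 and -0.46, and that of T cells at -0.095.

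T cells, the largest class in the pGF libraries after day 0, showed no member 2-fold apart between the arms: 0 of 25 at day 0, 0 of 26 at day 2 and 0 of 25 at day 7, against 1.08%, 1.92% and 2.24% of all genes. Over time Gapdh was at 1170, 553.8 and 810.5 CPM in SPF and at 1316, 570.0 and 509.1 in pGF. It was highest at day 0 in both arms. Its ratio of day 2 to day 0 was 0.473 (0.438 to 0.511) in SPF and 0.433 (0.411 to 0.457) in pGF. Depth differed as well: the median T cell had 4791 UMIs at day 0 and 2786 at day 2 in SPF, and 5572 and 2948 in pGF. In SPF, Gapdh was also lower at day 2 than at day 0 in macrophages, dendritic, plasma and epithelial cells, while in pGF macrophages it was higher. The part of depth was not tested. Hilpda in SPF went from 138.0 CPM at day 0 to 52.58 and 48.24, while in pGF it was 106.3, 96.29 and 56.99.

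By count, 2 of 25 T cell members were apart in SPF from day 0 to day 2, against 3.12% of all genes, and they were Gapdh and Hilpda, both lower. From day 2 to day 7, 0 of 23 were apart, against 2.68%, and from day 0 to day 7 Hilpda alone, 1 of 25 against 3.55%. In pGF, Gapdh alone was apart from day 0 to day 2, 1 of 26 against 1.58%, and 0 of 26 from day 2 to day 7, against 0.821%. From day 0 to day 7 in pGF, Gapdh and Ldha, at 414.5 and 200.2 CPM, were lower, 2 of 25 against 1.59%. The T cell mix also differed. A cluster led by Gzma, Gzmb and Ccl5 held 44.9% of SPF but 10.0% of pGF T cells at day 7. Another cluster, led by Gzma, Gzmb and Cd8b1, went the other way, with 11.7% of SPF and 16.5% of pGF T cells. Digestion genes in T cells summed to 3363 CPM in SPF day 7 and to 6136 to 9367 in the other 5 libraries.

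Plasma cells, whose UMIs are taken up by immunoglobulin transcripts, had few members measured. At day 0, 0 of 12 were apart between the arms, against 2.66% of all genes. In SPF, Gapdh was at 627.6 CPM at day 0 and 213.0 at day 2, a ratio of 0.339 (0.318 to 0.362), and was the only member apart, 1 of 16 against 3.9%. In pGF it was at 746.4 CPM at day 0 and 254.8 at day 7. With it Eno1 (90.49 and 36.08) and Pkm (145.6 and 61.89) were lower at day 7, 3 of 14 against 3.53%. The median plasma cell had 25891 UMIs at day 0 and 12134.5 at day 2 in SPF, and 36825 at day 0 and 14188 at day 7 in pGF. The part of this depth was not tested.

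Epithelial cells showed 0 of 23 members apart between the arms at day 0 and 0 of 24 at day 2, against 0.976% and 1.05% of all genes. From day 0 to day 2 in SPF, Adm went from 96.41 to 29.13 CPM, a ratio of 0.302 (0.261 to 0.350), the only one of 24 apart, against 1.82%. In pGF, Slc2a1 went from 133.0 to 57.03 CPM, the only one of 23 apart, against 1.83%. Gapdh was at 2065 and 1054 CPM at days 0 and 2 in SPF and at 1788 and 1171 in pGF, and Ldha at 1046 and 549.0 and at 1095 and 621.4. Each was lower at day 2 in both arms, by less than 2-fold on the scale used. The mix of epithelial clusters differed between the days. The cluster led by Car1, Krt8 and Lypd8 held 51 of 111 pGF epithelial cells at day 0 and 225 of 1125 at day 2, and 49 of 123 and 272 of 767 in SPF. A cluster of low depth, with a median of 1632 UMIs in pGF day 2, held 1 and 149 of those pGF cells. Slc2a1 was at 146.5 CPM in its pGF day 2 cells, above the class level. Within the first of these clusters Slc2a1 was at 180.7 CPM in pGF day 0 and 108.6 in pGF day 2. Its Ldha, at 1502 and 1042 CPM, was above the 557.0 of the largest other cluster of pGF day 2. The part of this mix in the day 2 values was not tested. Library depth moved as well: the median epithelial cell had 30985 UMIs at day 0 and 18144 at day 2 in SPF, against 30570 and 23129 under antibiotics.

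The rest of the pathway was read from lists of other genes. In macrophages at day 7, 29 of 40 other hypoxia genes were measured, with 2 higher and 3 lower in pGF and a median of -0.28, against 3.67% and 2.88% of all genes. Lower were Ddit4, a brake on mTOR signalling (68.55 CPM in SPF and 5.157 in pGF), Mt2, a metallothionein that also answers to metals (112.8 and 18.91), and Plin2, a lipid droplet coat protein (472.1 and 135.8). Among the higher was Cited2, which competes with HIF-1 for its coactivator (65.95 and 183.9). None of the 7 pentose phosphate genes and none of the 23 genes of pyruvate entry and the citric acid cycle was 2-fold apart, with medians of -0.19 and -0.20. Of the 24 other glycolytic genes, 3 were measured and 1 was lower, against the same 2.88%.

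Between the arms before day 7, 1 of the other hypoxia genes was higher in pGF macrophages and 1 lower at each day, of 26 measured at day 0 and 27 at day 2, against 1.54% and 5.9% of all genes apart. In epithelial cells 3 were higher at day 0 and 2 at day 2, of 28 measured each time, with 0 lower, against 0.976% and 1.05%. Vegfa, the vascular growth factor, was at 76.12 CPM in SPF and 24.21 in pGF macrophages at day 0 and at 110.7 and 21.19 at day 2. In epithelial cells the metallothioneins stood apart, with Mt1 at 513.4 CPM in SPF and 3290 in pGF at day 0 and Mt2 at 26.72 and 422.5. At day 2 they were at 676.5 and 2535, and at 77.85 and 374.1. In dendritic cells at day 7, Mt2, Ddit4 and Vegfa were lower in pGF, 3 of 25 measured hypoxia genes, with 0 higher, against 4.47% and 3.08% of all genes.

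Several of the enzymes have near-identical copies elsewhere in the mouse genome, Gapdh, Pgam1 and Eno1 among them, and how the counting shared reads between such copies is not given in the sources used here.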

How the data were processed

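Cells of 6 libraries were read as deposited counts of unique molecular identifiers (UMIs) per gene and barcode, which were not normalized. The submitters' processing notes name Cell Ranger 6.1.2, R 4.1.3, Seurat 4.1.1 and genome mm10. How reads shared between copies of a gene were counted is not given in the sources used here. Barcodes with at least 200 genes and at most 10% mitochondrial UMIs were kept, and doublets were removed by score at 0.8% per 1000 barcodes. Cells were clustered on 2000 variable genes, without the 32 members and without antigen receptor, mitochondrial and sex-linked genes, with 30 components, 20 neighbours and Leiden resolution 1, which gave 33 clusters. A cluster was named where its markers scored at least 1, at least 3 were detected and no other class led its top 10 genes. A cluster at under 0.5 times the typical depth needed a score at least 2 times that of the next class, a rule added after seeing the data.

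UMIs were summed per class and library and divided by the class total (CPM). Levels have exact Poisson intervals and ratios exact conditional binomial intervals, at 95%. For a count of 0 the level of 3 UMIs is given as a guide to depth. These cover counting error only, and with 1 library per group no test was made. Differences are log2 ratios of CPM + 10. Among members 2-fold apart that reached 50 CPM and 20 UMIs, a comparison names up to 6 higher and 6 lower, taken by the size of the ratio, and scarcer ones are given where a small count holds them. The members and lists were chosen with earlier results of these data known. Of the added lists, 23 of 24 other glycolytic genes, 39 of 40 other hypoxia genes, all 7 pentose phosphate genes, all 23 genes of pyruvate entry and the citric acid cycle and all 14 digestion-response genes were found. The values of 1 listed hypoxia gene are not reported here. The ratios and their intervals were checked on simulated Poisson counts with known changes. That check did not cover filtering, doublet removal, clustering or naming. The effect of 17 other settings, and of 4 added after seeing the data, is given in the closing section. Tools were Python 3.11.15, numpy 2.4.6, scipy 1.17.1, pandas 2.3.3, scikit-learn 1.9.0, igraph 0.11.9, leidenalg 0.10.2 and matplotlib 3.10.9.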

Additional observations from a re-analysis of the deposited data

How the results depend on the processing

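No paired analysis was possible because each group had 1 library. Over 34 comparisons, 17 other settings and a further 4 chosen after seeing the data gave 656 counts of members at least 2-fold apart. Of these, 520 were within 1.5 times the reported count and 136 were not. The settings that moved most counts were UMIs thinned to 1000 per cell, a pseudocount of 1 or 50 CPM, cells with no neutrophil marker and the mean over cells. Of 1364 values for members named in a comparison, 1239 kept their direction and stayed 2-fold apart, 124 kept their direction and were under 2-fold, and 1, Pfkp in neutrophils against T cells, turned to 0.231 with TMM totals. The cause was not tested for any of these.

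Between the arms, counts in macrophages ran from 0 to 2 at day 0, from 0 to 8 at day 2 and from 3 to 10 at day 7, where the 3 came at resolution 2 and at a pseudocount of 50 CPM. In dendritic cells they ran from 0 to 9 at day 2 and from 1 to 7 at day 7, in T cells from 0 to 3, 0 to 1 and 0 to 1 at days 0, 2 and 7, and in epithelial cells from 0 to 4 at day 0. Along the days, SPF macrophages had 0 to 5 from day 0 to 2, 3 to 14 from day 2 to 7 and 4 to 13 from day 0 to 7, where 5 came with TMM totals, 6 at resolution 2, 7 without the most abundant gene classes, 7 with at least 50 CPM and 7 in cells with no neutrophil marker. pGF macrophages had 0 to 5, 1 to 7 and 0 to 7. SPF dendritic cells had 1 to 6, 2 to 9 and 0 to 9, and pGF ones 0 to 4 from day 2 to 7. SPF T cells had 1 to 5, 0 to 1 and 0 to 6, and pGF ones 1 to 5, 0 and 1 to 4. Plasma cells had 1 to 4 in SPF and 1 to 5 in pGF, and epithelial cells 0 to 6 in SPF and 0 to 3 in pGF. Within SPF day 7, monocytes against macrophages had 6 to 20, neutrophils against monocytes 9 to 18 and neutrophils against T cells 11 to 21. TMM totals shifted log2 ratios between libraries by -0.384 to 0.157. Under every alternative run, no member was apart between the arms in plasma cells at day 0 or in epithelial cells at day 2. Depth limits low members most: 3 UMIs were worth 1.29 to 5.16 CPM in macrophages.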

Other observations

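Outside the 7 classes, Hilpda stood highest in a cluster that carries markers of type 2 innate lymphoid cells, led by Csf2, Il1rl1, Ccl1 and Gata3. Hilpda encodes a lipid droplet protein that blocks the breakdown of stored fat and is induced by HIF-1. Its level there was 674.5, 913.1 and 299.0 CPM in SPF at days 0, 2 and 7 and 804.9, 1388 and 731.9 CPM in pGF, and the highest level of Hilpda in any of the 7 classes was 257.9 CPM, in SPF day 7 monocytes. The pGF day 2 value has a counting interval of 1290 to 1492 CPM. The cluster held 24, 66 and 31 cells in SPF and 26, 185 and 164 in pGF, so the SPF day 7 value rests on 27 UMIs. Adm had 6 UMIs in the pGF day 2 cells and 5 in the pGF day 7 cells, or 11.25 and 11.23 CPM, and none in the other 4 libraries.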
